A study of Rattus norvegicus with 2 samples.

Results

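The cAMP pathway genes described here are the 77 genes of a table of 17049 whose symbols name the hormone PACAP, its relative VIP and their receptors, adenylyl cyclases, cyclic nucleotide phosphodiesterases, subunits of protein kinase A (PKA), A-kinase anchoring proteins (AKAPs), Rap exchange factors, CREB family transcription factors, or the alpha subunits of the stimulatory and inhibitory G proteins. The rule reads the symbol alone, though it was proposed with earlier results of these data known. Of the 77, 61 reached 1 TPM (a transcript level corrected for gene length and for library size) in the Aβ or the control library and are called measured, 1 of them (Pde6g) in the control library only.

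RNA was sequenced from cultures labelled as primary oligodendrocyte precursor cells (OPCs) of wild-type adult rat brain, kept in OGM medium. The Aβ culture received amyloid-β, which forms the plaques of Alzheimer's disease, at 1 µM for 2 days, and the control culture is labelled DMSO, a solvent. The treatment protocol given for both samples names Aβ, so the control rests on its treatment label and title. There was 1 library of each, of 15704932 (Aβ) and 15663751 (control) estimated reads. With 1 library a group no difference has a replicate check, so no p-value is given for a difference. A read ratio is the share of all reads that a gene took in the Aβ library over its share in the control library, with an exact Clopper-Pearson 95% interval that covers counting error and compares the libraries, not the conditions. "Higher" and "lower by reads" mean an interval wholly above or below 1, and the size bound means in addition a ratio of 0.8 or less, or its inverse or more.

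cAMP is made from ATP by adenylyl cyclases, which stimulatory G protein alpha (Gnas) turns on and inhibitory alpha (Gnai1, Gnai2, Gnai3) turns down on command of receptors at the cell surface. It acts through PKA, which phosphorylates the transcription factor CREB, and through the exchange factors of Rap GTPases, and phosphodiesterases end the signal. In rat cultures, agents that raise cAMP promote maturation of oligodendrocyte lineage cells, and oligodendrocyte progenitors of rat brain carry PACAP receptors.

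The label OPC was checked against markers, with Pdgfra, Cspg4 and Sox10 picked as defining ones after values were seen. Olig1 was at 1420.5 TPM with Aβ, against 1557 TPM in the control, and Ptprz1 at 866 and 905 TPM, while Pdgfra (23.2 and 24.6 TPM) and Cspg4 (6.65 and 3.70 TPM) were lower in level and Sox10 had 22 and 33 reads. Astrocyte markers were abundant, with Slc1a3 at 1013 TPM with Aβ, against 987 TPM in the control and Gfap at 328 and 368 TPM, and 10 of 12 in that list were measured. Microglia markers were measured for 14 of 15 listed in the table. Levels here are thus those of the whole culture, and fewer cells of a type cannot be told apart from less RNA per cell.

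Most of the pathway lay close to equal between the libraries, and 3 genes past the size bound on the higher side and 2 on the lower side stood apart. The higher genes were Akap12, Crem and Pde10a and the lower ones Pde1b and the PACAP receptor gene Adcyap1r1. No measured member was 2-fold apart by TPM (with a pseudocount of 1), where 0.501% of 12980 measured genes were 2-fold higher with Aβ and 0.493% lower. The count past the size bound was 3 of 61 (4.92%), beside 4.34% of all measured genes, on the higher side and 2 of 61 (3.28%), beside 3.35%, on the lower. An interval above 1 was found for 10 members (16.4%), beside 12% of all, and below 1 for 6 (9.84%), beside 12.5%. The median log2 read ratio was 0.02 over the members and 0.00 over all measured genes, and 52 of the 61 members (85.2%) had ratios within the size bound, beside 85.9% of all. These shares are near those of all genes, and what follows concerns single genes.

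**Figure D1:**
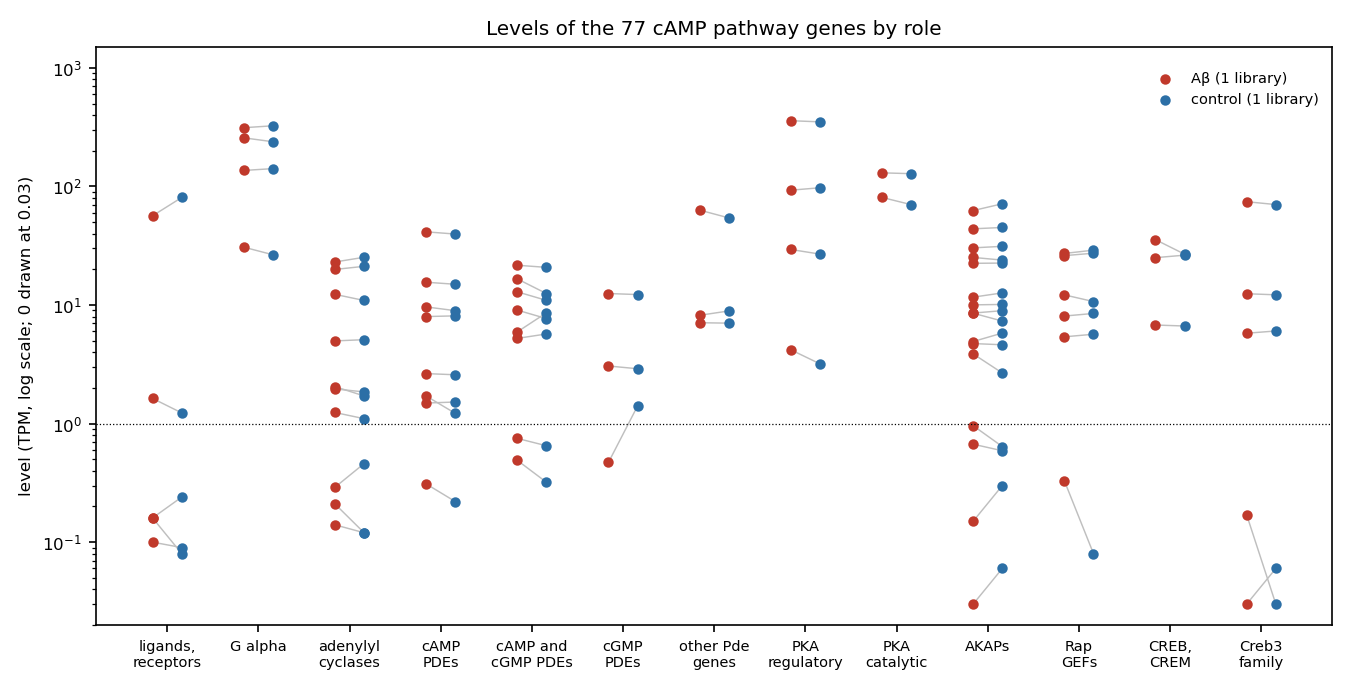
Levels in TPM (log scale) of all 77 genes, grouped by role, with the Aβ library on the left of each pair and the control library on the right, and a dotted line at 1 TPM. Gnai2, Gnas and Prkar1a lie at the top in both libraries, and Adcyap1r1 is the upper pair of the first group, at 56.6 TPM with Aβ, against 80.7 TPM in the control.

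Of the PACAP and VIP system the receptor gene Adcyap1r1 was the member expressed at a high level, and it was lower in the Aβ library. Adcyap1r1 encodes PAC1, the receptor that prefers PACAP over VIP and couples to the stimulatory G protein. It was at 56.6 TPM with 3479 reads in the Aβ library, against 80.7 TPM with 4998 reads in the control library. The read ratio was 0.694 (0.665 to 0.725). By level it was gene number 3099 from the top with Aβ and 2156 in the control. Of the 665 other genes with at least as many reads over both libraries, 0 had a lower ratio, a ranking made after the value was seen. Adcyap1r1 had whole reads, and its span overlaps no other gene of the table in the RefSeq annotation.

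Markers of the cell types the culture could hold moved in both directions. The median log2 read ratio was −0.02 for 12 measured OPC markers, −0.10 for 10 astrocyte markers, −0.03 for 14 microglia markers, −0.15 for 10 oligodendrocyte markers and 0.10 for 12 neuron markers, against −0.53 for Adcyap1r1. Summed levels were 2811 TPM with Aβ, against 3008 TPM in the control for OPC markers, 2413 and 2428 TPM for astrocyte markers, and 377 and 425 TPM for microglia markers. Oligodendrocyte markers summed to 291 TPM with Aβ, against 316 TPM in the control, fibroblast markers to 62.1 and 75.5 TPM (median −0.32 over 6 genes) and endothelial and mural markers to 9.08 and 9.19 TPM (median −0.07 over 3). Summed neuron markers were at 170.3 TPM with Aβ, against 164.8 TPM in the control. Past the size bound on the lower side, which 3.35% of all measured genes passed, were 4 of 14 microglia markers (28.6%), 2 of 10 oligodendrocyte markers (20%), 3 of 6 fibroblast markers (50%) and 2 of 12 neuron markers (16.7%), and 0 of the 12 OPC and 10 astrocyte markers. Among the microglia markers was the complement gene C1qa at 0.672 (0.589 to 0.765). On the higher side, which 4.34% of all measured genes passed, were 2 of 12 OPC markers (16.7%) and 3 of 12 neuron markers (25%). Of 6 fibroblast markers 1 (16.7%) was there too, and the other marker lists had 0. Intervals below 1 were found for 4 OPC (33.3%) and 5 astrocyte markers (50%), beside 12.5% of all measured genes. Intervals above 1 were found for 3 OPC (25%) and 3 astrocyte markers (30%), beside 12%. The part of cell make-up in the receptor's ratio was not tested.

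The other genes of this system were near the floor. The ligand gene Adcyap1 (PACAP) had 3 reads in each library and Vip had 2 reads with Aβ, against 1 in the control. Neither ligand gene exceeded the floor of 3 reads in either library, and so few reads do not settle whether either was expressed. That floor is about the largest expected count that an observed 0 still allows. The receptor gene Vipr1 had 7 reads with Aβ, against 11 in the control. Vipr2, the other receptor shared by both hormones, was at 1.63 TPM with Aβ, against 1.23 TPM in the control, with 55 and 43 reads and a ratio of 1.28 (0.840 to 1.95). Adcyap1r1 held 96.5% of the summed TPM of these 5 genes with Aβ and 98.01% in the control.

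G protein alpha subunits moved by little. Gnas, the stimulatory subunit, was at 257 TPM with Aβ, against 238 TPM in the control and slightly higher by reads (1.09, 1.03 to 1.16). Gnai1 was also higher, on 530 reads with Aβ, against 458 in the control (1.154, 1.02 to 1.31). Gnai2, the inhibitory subunit of highest level at 313 TPM with Aβ, against 325 TPM in the control, was lower (0.960, 0.927 to 0.9941). Gnai3 was at 136 TPM with Aβ, against 141 TPM in the control, with a ratio of 0.958 (0.917 to 1.00). The 3 inhibitory subunits together were at 480.0 TPM with Aβ, against 493 TPM in the control, above Gnas in both.

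Of 10 adenylyl cyclases 7 were measured. Of these 1 (14.3%), Adcy6, was lower by reads and 0 were higher, beside 12.5% and 12% of all measured genes. Adcy6, a calcium-inhibited cyclase and the one of highest level, was at 23.1 TPM with 1347 reads with Aβ, against 25.3 TPM with 1487 reads in the control (0.903, 0.839 to 0.973), and its span overlaps that of Tuba1c. Adcy2, which responds to G protein beta-gamma subunits, was next at 20.0 TPM with Aβ, against 21.2 TPM in the control (0.933, 0.843 to 1.03). The calmodulin-stimulated Adcy3 was at 12.3 and 10.9 TPM (1.11, 0.980 to 1.26), and Adcy9 at 2.05 and 1.71 TPM (1.19, 0.931 to 1.52). Intervals of Adcy1, Adcy5 and Adcy7 also held 1. Adcy4, Adcy8 and the soluble cyclase Adcy10 stayed under 1 TPM, with 15 reads or fewer in either library. Summed over the group, cyclases were at 66.2 TPM with Aβ, against 67.9 TPM in the control.

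Phosphodiesterases that hydrolyse cAMP had a summed level of 153.4 TPM with Aβ, against 144.4 TPM in the control over 16 genes, 13 of them measured, and 4 of the 13 were higher by reads and 1 lower, beside 12% and 12.5% of all measured genes. The higher ones were Pde10a, Pde2a, Pde3a and Pde4d. Pde10a, an enzyme that takes cAMP and cGMP, was at 16.6 TPM with 537 reads in the Aβ library, against 12.5 TPM with 406 reads in the control library. Its ratio was 1.32 (1.16 to 1.504), so its interval lay clear of 1. The cGMP-inhibited Pde3a, with 850 and 731 reads, had a ratio of 1.16 (1.049 to 1.28). The cGMP-stimulated Pde2a, with 351 and 299 reads, had 1.17 (1.00 to 1.37), an interval that barely clears 1. Of the other genes with both substrates, Pde3b (1.03, 0.941 to 1.13) and Pde1c (0.912, 0.783 to 1.06) had intervals that held 1. Pde11a, on 30 and 21 reads (1.42, 0.789 to 2.62), and Pde1a, on 9 and 6 reads, were under 1 TPM in both libraries, and Pde1b is described further on.

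Among the 7 measured cAMP-specific enzymes, Pde4d was the 1 (14.3%) called higher by reads, beside 12% of all measured genes. Pde4d, of the rolipram-sensitive family, had 624 reads with Aβ, against 548 in the control (1.14, 1.01 to 1.28). Its relative Pde4b, at 41.4 TPM with Aβ, against 39.7 TPM in the control, held 51.3% of the group's summed TPM with Aβ and 51.4% in the control, and its ratio was 1.04 (0.956 to 1.12). Pde8a, on 52 and 39 reads, was at 1.33 (0.861 to 2.07). Pde7a, Pde7b, Pde8b and Pde4a had ratios between 0.973 and 1.048 with intervals that held 1, and Pde4c had 6 and 5 reads.

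Pde1b, a calmodulin-dependent phosphodiesterase, had the lowest ratio of any member with 200 or more reads, but on reads that the authors' counting had divided. It was listed at 5.93 TPM with 189.45 reads with Aβ, against 8.60 TPM with 307.38 reads in the control, a read ratio of 0.614 (0.510 to 0.738). Ppp1r1a, a phosphatase inhibitor gene whose span meets that of Pde1b in the RefSeq annotation, was listed at 224.55 reads with Aβ, against 184.62 in the control, the opposite direction. It was the 1 gene of 2287 others with divided reads whose number added with that of Pde1b to a whole in both libraries (within 0.006). The sums were 414 reads with Aβ, against 492 in the control, a ratio of 0.839 (0.735 to 0.958), a summing chosen after the values were seen. The size of the Pde1b difference thus depends on how reads of this pair were shared out.

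The genes of cGMP phosphodiesterases, subunits included (3 measured), and the Pde-named genes of other function (3 measured) showed 1 difference by reads. Of all measured genes 12% were higher and 12.5% lower. Pde6d, a carrier of prenylated proteins, was higher at 63.1 TPM with Aβ, against 54.3 TPM in the control (1.17, 1.03 to 1.33). The intervals of Pde12 (0.915, 0.731 to 1.14) and Pde4dip (1.04, 0.924 to 1.16) held 1. Pde5a and Pde9a, both specific to cGMP, had ratios of 1.02 (0.918 to 1.12) and 1.054 (0.711 to 1.56). Pde6g, for a subunit of the photoreceptor enzyme, had 3 reads with Aβ, against 9 in the control.

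**Figure D2:**
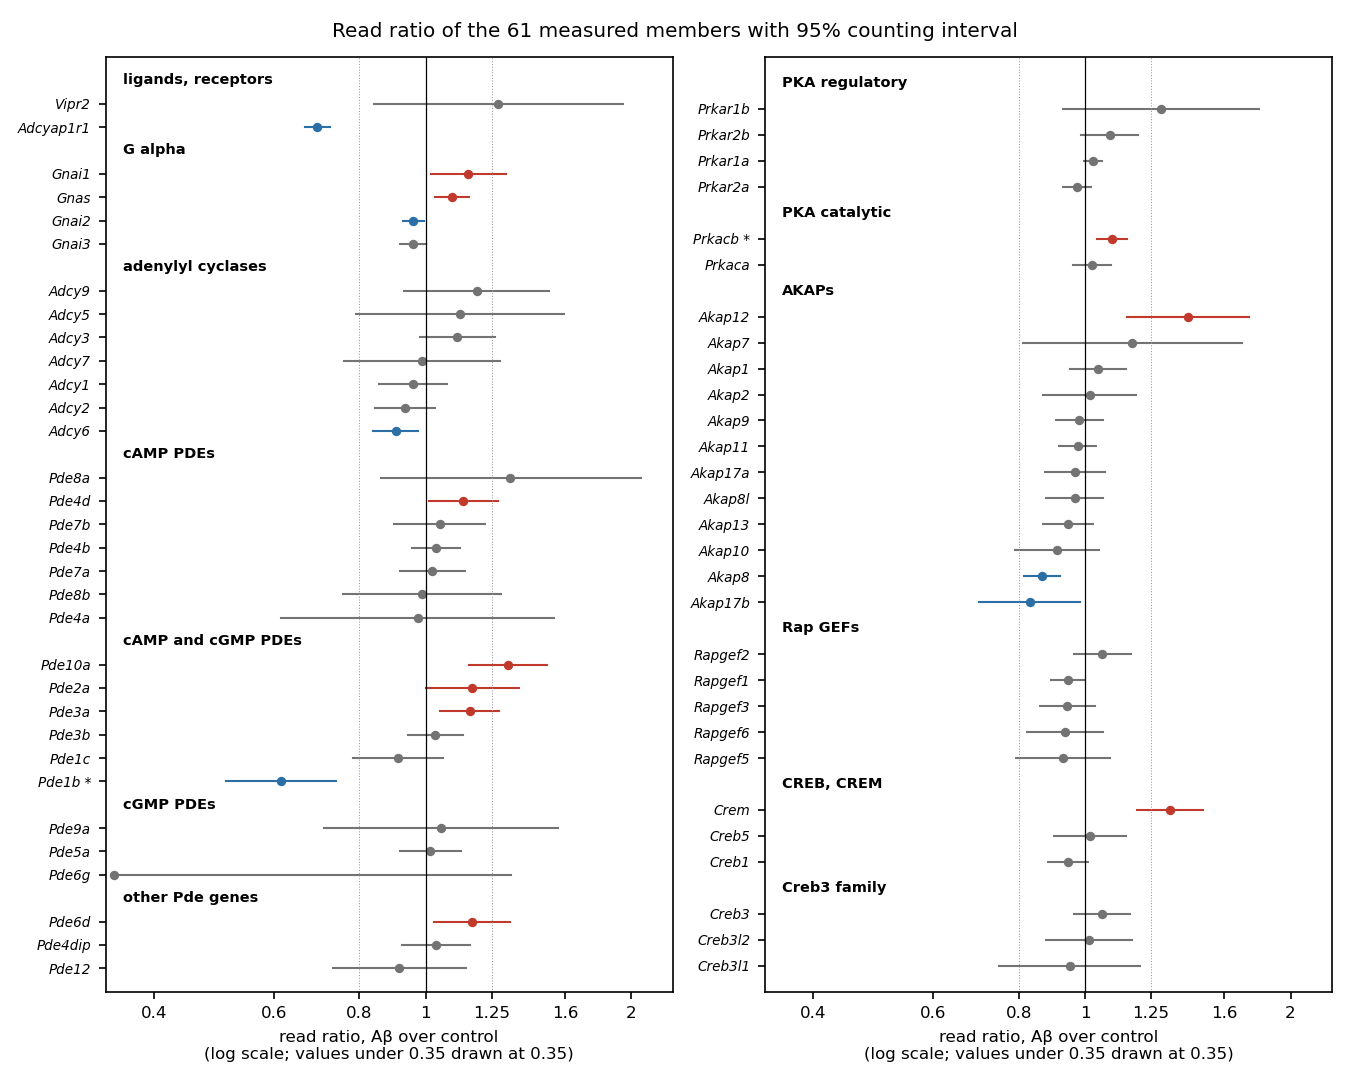
Read ratio (Aβ over control, log scale) of the 61 measured members by role, with 95% counting intervals, red where the interval lies above 1, blue below, grey where it holds 1, dotted lines at 0.8 and its inverse, and asterisks on genes with divided reads. The interval of Adcyap1r1, 0.665 to 0.725, lies wholly left of the lower dotted line, while Akap12, Crem and Pde10a lie to the right of the upper dotted line.

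Of the 6 PKA subunits 5 were above 25 TPM in both libraries, and Prkar1b was below 5 TPM in both. By reads 1 of the 6, Prkacb, was higher and 0 were lower, beside 12% and 12.5% of all measured genes. The regulatory subunit Prkar1a, at 359 TPM with Aβ, against 350.5 TPM in the control, held 73.9% and 73.3% of regulatory transcripts, and its ratio was 1.03 (0.997 to 1.06). Prkar2a (0.972, 0.927 to 1.02), Prkar2b (1.09, 0.986 to 1.20) and Prkar1b (1.29, 0.930 to 1.80, on 88 and 68 reads) had intervals that held 1. Of the catalytic subunits, Prkacb was higher at 80.8 TPM with Aβ, against 70.3 TPM in the control (1.10, 1.04 to 1.153, on divided reads). Prkaca was at 130.2 TPM with Aβ, against 128.2 TPM in the control (1.02, 0.960 to 1.09). Summed catalytic levels were 211 TPM with Aβ, against 198.4 TPM in the control.

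Of 16 AKAPs, which tether PKA at sites in the cell, 12 were measured, and 1 (8.33%) was higher by reads and 2 (16.7%) lower, shares near the 12% and 12.5% of all measured genes. Akap12 (gravin), a plasma membrane scaffold that also binds protein kinase C, was at 3.87 TPM with 234 reads with Aβ, against 2.67 TPM with 165 reads in the control. Its ratio of 1.41 (1.154 to 1.74) was the highest of the measured members, and 1.27% of the 10581 measured genes with 200 or more reads had a higher one. The nuclear anchor Akap8, the AKAP of highest level at 62.6 TPM with Aβ, against 71.5 TPM in the control, was lower (0.864, 0.813 to 0.918). Akap17b was lower on 253 and 304 reads (0.830, 0.700 to 0.984), and its relative Akap17a was at 0.967 (0.873 to 1.07). The mitochondrial anchor Akap1, the centrosomal Akap9 and the large scaffold Akap13 lay between 0.944 and 1.04. Akap2, Akap7, Akap8l, Akap10 and Akap11 had ratios from 0.910 to 1.17, with intervals that held 1. The AKAPs under 1 TPM were Akap3, Akap6, Akap14 and Akap5. Akap5, which tethers PKA at synapses in neurons, had 24 reads with Aβ, against 16 in the control.

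Rap exchange factors gave no call among the 5 measured, where 12% of all measured genes were higher by reads and 12.5% lower. Rapgef3 (Epac1), opened directly by cAMP, was at 27.2 TPM with Aβ, against 29.0 TPM in the control (0.942, 0.859 to 1.03). The other cAMP-bound member, Rapgef4, was under 1 TPM, with 13 reads with Aβ, against 3 in the control (4.32, 1.19 to 23.6), so its ratio rests on very few reads. Rapgef1, Rapgef2, Rapgef5 and Rapgef6, the other Rap exchange factors, had ratios from 0.928 to 1.06.

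Among the CREB family Crem was higher in the Aβ library. Crem encodes activators and, from a start inside the gene, the repressor ICER, which cAMP induces through CRE motifs. It was at 35.6 TPM with 737 reads with Aβ, against 26.8 TPM with 552 reads in the control. The ratio was 1.33 (1.19 to 1.49), and 2.02% of genes with 200 or more reads had a higher one. Creb1 was at 25.1 TPM with Aβ, against 26.3 TPM in the control (0.945, 0.884 to 1.01) and Creb5 at 6.78 and 6.65 TPM (1.02, 0.902 to 1.149). Crem was thus above Creb1 in the Aβ library and within a TPM of it in the control. The membrane-bound relatives Creb3 (1.06, 0.964 to 1.16), Creb3l1 (0.950, 0.749 to 1.20) and Creb3l2 (1.01, 0.877 to 1.17) were within counting error of equal, and Creb3l3 and Creb3l4 had 2 reads or fewer.

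The RefSeq table (build GRCr8, while the submitters' processing notes name Rnor_6.0) holds 3 start windows of Crem, shown because its reads come from any of these starts and cannot be split among them. Each runs from 250 bases before the start to 50 after it on the plus strand of chromosome 17. Capitals mark the palindromic CRE motif TGACGTCA in the lower pair, and its core TGACG (or CGTCA on the other strand) in the first.
Crem start 1, chr17:58933816-58934115: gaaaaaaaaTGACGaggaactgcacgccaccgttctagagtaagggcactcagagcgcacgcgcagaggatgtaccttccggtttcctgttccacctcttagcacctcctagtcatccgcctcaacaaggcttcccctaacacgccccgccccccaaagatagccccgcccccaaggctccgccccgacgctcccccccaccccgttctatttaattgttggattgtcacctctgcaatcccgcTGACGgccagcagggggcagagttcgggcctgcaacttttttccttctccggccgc
Crem start 2, chr17:58984547-58984846: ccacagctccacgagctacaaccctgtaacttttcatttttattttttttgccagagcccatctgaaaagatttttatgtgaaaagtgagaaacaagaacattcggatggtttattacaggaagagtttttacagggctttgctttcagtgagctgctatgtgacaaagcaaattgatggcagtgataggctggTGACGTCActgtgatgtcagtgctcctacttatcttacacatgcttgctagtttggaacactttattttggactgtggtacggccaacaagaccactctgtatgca
Crem start 3, chr17:58985240-58985539: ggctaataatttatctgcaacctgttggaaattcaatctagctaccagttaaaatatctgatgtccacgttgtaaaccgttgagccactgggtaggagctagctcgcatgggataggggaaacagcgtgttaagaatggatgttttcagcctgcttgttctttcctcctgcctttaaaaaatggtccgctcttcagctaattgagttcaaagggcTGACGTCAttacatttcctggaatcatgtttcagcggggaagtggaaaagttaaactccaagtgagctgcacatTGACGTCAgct

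The full motif occurs 1 time in window 2 and 2 times in window 3, and not in window 1, which has 2 matches of the core. Windows were found for 61 of the 77 members, measured or not, and 2 genes (3.28%), Crem and Akap17a, held the full motif. That share was 2.00% for all genes with a window and 3.45% for genes at 1 TPM or more with a window. Akap17a holds it while its ratio was 0.967, as given above. The motif search read both strands, and a match is a description of the letters and no sign of binding.

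Receptors that feed the pathway were read from a list of 37 genes coupled to the stimulatory G protein, of which 28 were in the table and 11 measured. The list leaves out the member receptors Adcyap1r1, Vipr1 and Vipr2, described above. Of these, Adcyap1r1 was lower by reads (0.694, 0.665 to 0.725) at 56.6 TPM with Aβ, against 80.7 TPM in the control. The intervals of Vipr1 and Vipr2 held 1. The beta1-adrenergic receptor Adrb1 had 96 reads with Aβ, against 63 in the control (1.52, 1.09 to 2.12). The prostaglandin E2 receptor Ptger2 had 38 and 17 reads (2.23, 1.23 to 4.21). Over the list, 3 of 11 (27.3%) were higher by reads and 0 were lower, beside 12% and 12.5% of all measured genes, with a median log2 read ratio of 0.20, on low levels of 8.40 TPM or less. Gpr65, a proton sensor, had 26 and 39 reads (0.665, 0.389 to 1.12).

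Of 39 receptors coupled to the inhibitory G protein, 34 were in the table and 9 measured, 2 (22.2%) higher by reads and 2 (22.2%) lower, beside 12% and 12.5% of all measured genes. The cannabinoid receptor Cnr1 was at 217 TPM with 12060 reads with Aβ, against 173 TPM with 9652 reads in the control (1.246, 1.21 to 1.28), and so above Adcyap1r1 in level in both libraries. The lysophosphatidic acid receptor Lpar1 was higher (1.33, 1.06 to 1.67). The cannabinoid receptor Cnr2 (1.59, 0.905 to 2.84, on divided reads) and the prostaglandin E2 receptor Ptger3 (1.42, 0.907 to 2.26, on 50 and 35 reads) had intervals that held 1. The alpha2A-adrenergic receptor Adra2a was lower, on 102 and 143 reads (0.711, 0.546 to 0.924). The adenosine receptor Adora1, named after its value was seen, was lower too, on 369 and 456 reads (0.807, 0.702 to 0.928).

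PKA modulators and CREB coactivators lay at equality as a list, with a median log2 read ratio of 0.00 over 19 measured genes, 2 (10.5%) higher by reads and 1 (5.26%) lower, beside 12% and 12.5% of all. The CREB coactivator Crtc1 was at 24.0 TPM with Aβ, against 20.6 TPM in the control (1.16, 1.07 to 1.27), and the PKA-related kinase Prkx at 1.20 (1.02 to 1.40). Crebbp, the CREB-binding acetyltransferase, was lower (0.890, 0.806 to 0.983). The PKA inhibitor Pkig had a ratio of 1.02 (0.914 to 1.14), and the cyclic nucleotide-gated channel Hcn2 of 0.791 (0.574 to 1.09).

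Genes known as CREB targets were mostly higher in the Aβ library. Of 27 measured, 19 (70.4%) were higher by reads and 1 (3.70%) lower, beside 12% and 12.5% of all measured genes, and 18 (66.7%) were past the size bound, beside 4.34% of all measured genes. The median log2 read ratio was 0.51, or 1.43-fold, against 0.02 for the pathway members. Nr4a1 (2.81, 2.43 to 3.26), Ptgs2 (2.40, 1.83 to 3.18), Bdnf (2.15, 1.32 to 3.61, on 54 and 25 reads) and Arc (2.01, 1.52 to 2.68) had the largest ratios on 50 or more reads. Scg2, the target of highest level at 112.8 TPM with Aβ, against 107.3 TPM in the control, was at 1.04 (0.986 to 1.10). Ppargc1a, the 1 target lower by reads and named after its value was seen, had a ratio of 0.687 (0.541 to 0.871). Many are immediate early genes that factors other than CREB also drive, and the list was drawn up with the higher level of several in these libraries known, so its count is no independent evidence. Of 24 with a start window, 6 (25%) held the full CRE motif, beside 3.45% of genes at 1 TPM or more with a window. Of these, Vgf and Areg were higher by reads and Ppargc1a lower, while the intervals of Scg2, Dusp1 and Sst held 1. The genes were listed because they are known CREB targets, so the motif share is no independent evidence either. Whether targets with the motif differed in ratio from those without it was not tested.

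**Figure D3:**
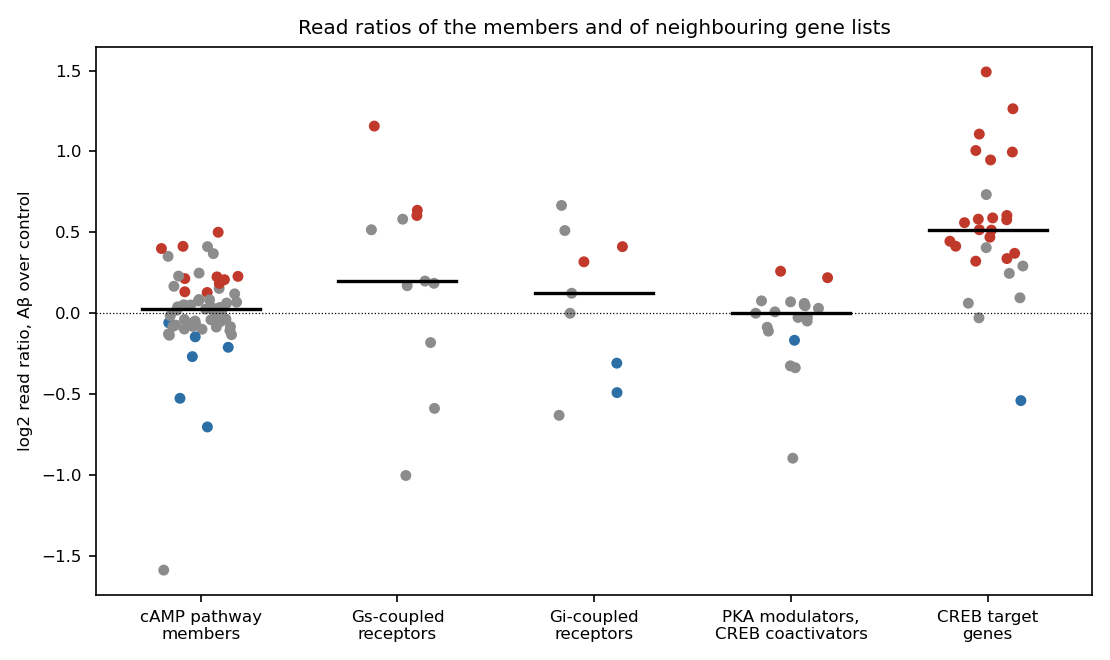
Log2 read ratio (Aβ over control) of measured genes in the pathway members and in lists of receptors, PKA modulators with CREB coactivators, and CREB targets. Black bars are medians, and red and blue points have counting intervals above and below 1. The median is 0.02 for the members and 0.51 for CREB targets.

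The authors' deposited table of gene ontology terms for genes higher with Aβ holds 2 of the 77 members, Crem and Akap12. Its terms hold 246 genes in all, and its enrichment was counted on 391 selected genes of a background of 13666. The 2 members are thus given as single genes, not as a result about the pathway. In the authors' deposited table Crem stands in the terms response to purine-containing compound (fold enrichment 2.87, adjusted p-value 0.024) and response to organophosphorus (2.98, adjusted p-value 0.0275), beside the CREB targets Fos, Per1, Ptgs2 and Vgf. Akap12 stands in 17 terms of the authors' deposited table, among them response to lipopolysaccharide and response to tumor necrosis factor. Of the 282 terms in the authors' deposited table, 0 name cAMP, a cyclic nucleotide or adenylate. That search read the term names alone, and whether a term covers responses to cAMP was not examined.

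**Figure D4:**
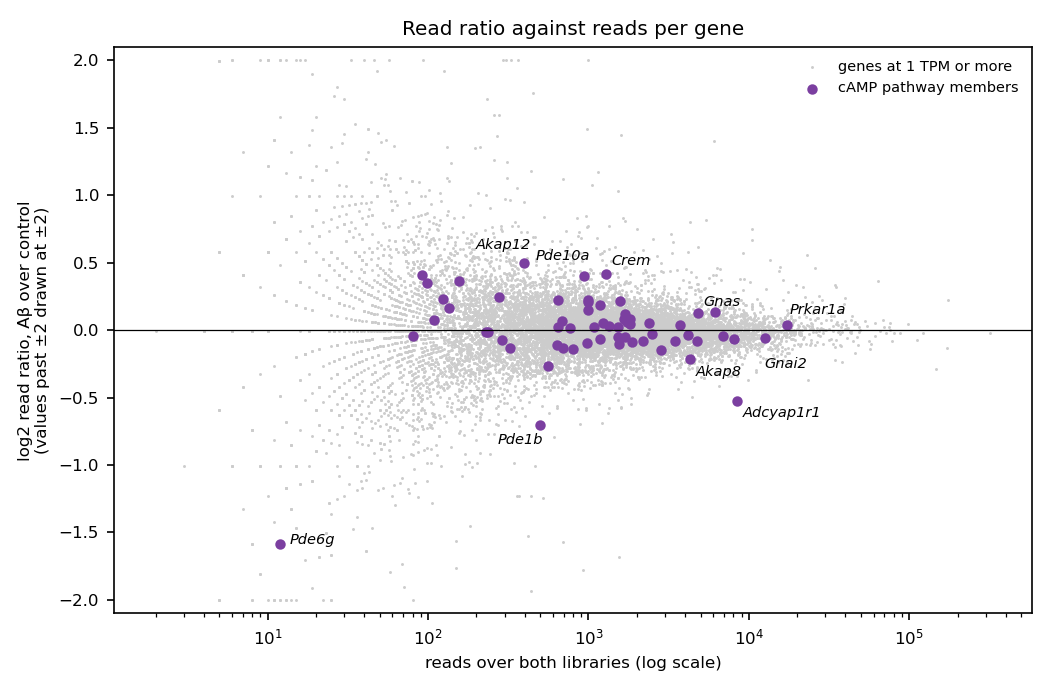
Log2 read ratio (Aβ over control) against reads over both libraries (log scale) for measured genes with reads in both (grey) and the measured members (purple), with 10 members named. Adcyap1r1 lies at −0.53 at the lower edge of the cloud for genes of its read number, and most members lie near 0.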

How the data were processed

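The deposited table gives estimated counts of reads and TPM per gene. The submitters' processing notes name Bowtie2 and Rnor_6.0; for counting tool and annotation, none is given in the sources used. Estimated counts, not whole for some genes (divided reads), were rounded for intervals. The authors' enrichment table holds fold enrichment (a ratio), rich factor (a fraction), z score and p-value columns, named so in its header. Intervals treat reads as independent molecules although no molecular identifier is stated, so they cover counting error only. The counting is not stated to use strand, and 13 members overlap another listed gene in GRCr8, so their reads may be shared. All 77 gene numbers were found in RefSeq, 76 with the same symbol (Akap2 is Pakap there).

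Members were matched by a rule on symbols, and that rule and the lists were chosen with earlier results of these data known. Genes named in full were the receptor system, G proteins and PKA subunits, and in each other role or list the highest by TPM and the 4 of largest ratio with 50 or more reads, and in marker lists the 2 highest by TPM; further members are given by value. Alternatives changed the pseudocount, unit, filter, divided reads and scaling (TMM in edgeR 4.0.16, or median of ratios). Python 3.11.15 and scipy 1.17.1 were used, and the steps were tested on simulated data. Values of 1 listed receptor are not reported here.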

Additional observations from a re-analysis of the deposited data

How the results depend on the processing

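Leaving out genes with divided reads brought the number of members past the size bound on the lower side to 1, against 2 with them, by removing Pde1b. Summing Pde1b with Ppp1r1a, chosen after seeing the data, also gave 1, with a ratio of 0.839 for the summed pair. The other counts moved by at most 1.5 times, among them the members past the bound on the higher side, 2 to 4 in number, as a filter of 5 TPM leaves out Akap12 and no filter lets in Rapgef4. Members with an interval above 1 numbered 9 to 11 and below 1 numbered 5 to 6 across the filters, scalings and the removal of divided reads, and 0 members were 2-fold apart under any pseudocount, unit or filter tried. The median log2 TPM ratio of the members was 0.02, and −0.01 with a filter of 5 TPM. TMM and median-of-ratios scaling shifted every log2 read ratio by 0.00 and changed no call of a named gene. No paired analysis was possible because each group has 1 library. Depth limits the 16 members under 1 TPM.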

Other observations

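TPM and read ratios were more than 5% apart for 6 of the 61 measured members, so the gene length that the authors' TPM used differed between the libraries for these genes. The TPM ratio stood above the read ratio by 7.45% for Rapgef2, 7.12% for Adcy7, 5.40% for Pde8a and 12.3% for Pde1b. It stood below it for Pde4d and Pde7b, with quotients of 0.947 and 0.941. Among members with 200 or more reads 5 of 53 (9.43%) were so apart, beside 4.64% of the 10581 measured genes of that depth. The transcript forms behind these lengths were not analysed here.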
